A study of Bos taurus with 15 samples.

Results

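Whether the temperature of the dam left the same large-scale methylation pattern in liver and in mammary gland was examined over bins of 1 Mb. A bin was kept if every one of the 15 animals had at least 50 cytosine positions in it, which left 1694 of the 2529 bins with data on chromosomes 1 to 29 (67.0%). The methylation level of a bin in an animal was the plain mean of the percent methylated at its positions, less the mean of that animal over all kept bins, so that a value of -5 is 5 percentage points below the animal's own average. The treatment effect of a bin in a tissue was the mean of the in utero heat stressed (IUHT) animals minus the mean of the in utero cooled (IUCL) animals.

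The animals were Holstein cattle whose dams spent the last 6 to 7 weeks of gestation either with active cooling or under heat stress. Liver was taken from newborn bull calves in the groups IUCL-B (in utero cooled, treatment label CL, n = 5, calves 1 to 5) and IUHT-B (in utero heat stressed, treatment label HT, n = 4, calves 2 to 5), within hours of birth and before colostrum. Mammary gland was biopsied from lactating heifers in the groups IUCL-H (n = 3) and IUHT-H (n = 3) at day 21 of the first lactation, numbered 1 to 3 by group, following the record order. Every animal gave 1 library. All the calves were male and newborn and all the heifers female and adult, so tissue, sex and age are the same split and cannot be told apart. Per the study's methods the calves were born in more than 1 year and the heifers in a single year. The labels do not give the year of each calf, so year could not be separated from treatment in liver. Both tissues were sampled in bulk, so a shift in the methylation of a bin cannot be told apart from a shift in the share of a cell type. The identity of the tissues could not be checked against marker genes, because no annotation of the build of the files was used here.

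In mammals, cytosines followed by guanine are mostly methylated, with CpG islands at promoters as the main exception, and megabase averages follow the broad domains of a chromosome rather than single genes. Maintenance methylation copies the pattern when DNA replicates, so a change laid down in the fetus can outlast the exposure. Liver parenchyma arises from endoderm and mammary epithelium from ectoderm, and a response to the uterine environment held by both would show as bins that move the same way in both tissues. Reduced representation bisulfite sequencing (RRBS) is meant to read DNA near the cut sites of restriction enzymes, here MspI and TaqαI. A bin average is therefore expected to cover the CpG-rich part of its megabase more than the rest.

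The files held between 10484911 and 38221835 methylation calls per animal, but these calls were spread over very different numbers of positions. IUCL-B 1, for example, had 35408716 calls at 1052206 positions, and IUCL-H 1 had 16362464 calls at 8523426. How closely each library kept to the cut sites was not tested. The median bin held between 2878 and 3688 positions in the heifers, and between 112.5 (IUHT-B 5) and 2291.5 (IUCL-B 5) in the calves. All 835 bins left out were short of positions in IUHT-B 5, and none was short in a heifer. The 110 kept bins whose lowest count was 50 to 54 had an SD of liver effects of 4.18 points, and the 125 bins left out with a lowest count of 45 to 49 had an SD of 4.38 points. The mean bin level was 73.4 to 78.0% in the calves and 70.4 to 74.9% in the heifers.

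A set of 4 libraries, 2 from each tissue, were alike across the tissues. Bin levels of IUCL-B 4 and IUCL-B 5 correlated with those of IUCL-H 3 and IUHT-H 3 at r = 0.810 to 0.871 over bins, and with those of the other 7 calves at 0.571 to 0.765 (median 0.674). The other 7 calves had a like median among themselves (0.542 to 0.834, median 0.673), and with the 6 heifers they ranged from 0.534 to 0.782. Among each other IUCL-B 4 and IUCL-B 5 reached 0.930. The heifers resembled each other closely (r = 0.831 to 0.958 in all 15 pairs), whereas calves of the same group ranged from 0.644 to 0.930 and calves of different groups from 0.542 to 0.765. IUCL-H 3 and IUHT-H 3 correlated with every other heifer at 0.831 or more. By r as measured, IUCL-B 4 and 5 were less like any of the other 7 calves than like heifers 3. With the other heifers their r was 0.615 to 0.771 (median 0.763). The median standard error of a bin level from the number of positions alone was 2.00 to 3.72 points in the other 7 calves. It was 0.717 points in IUCL-H 3 and 0.702 in IUHT-H 3. Such errors lower r, and the order of likeness without them was not tested. When each animal was expressed as its deviation from its tissue mean, the 4 pairs of IUCL-B 4 or 5 with a heifer 3 gave r = 0.359 to 0.592. The 14 pairs of those calves with the other calves gave -0.327 to -0.0728, and the 8 pairs of those calves with the other heifers gave -0.646 to -0.0908. Deviations within a tissue sum to 0 in every bin, so these negative values follow on balance from the positive ones and add no evidence of their own. These calves also had the largest median number of positions per bin among calves (1322.5 and 2291.5, against 112.5 to 421 in the other 7). A common origin of the likeness was not tested. The correlation, the calf scores, the liver effect size and the counts of called bins in liver and of the interaction are given with and without IUCL-B 4 and 5.

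**Figure D1:**
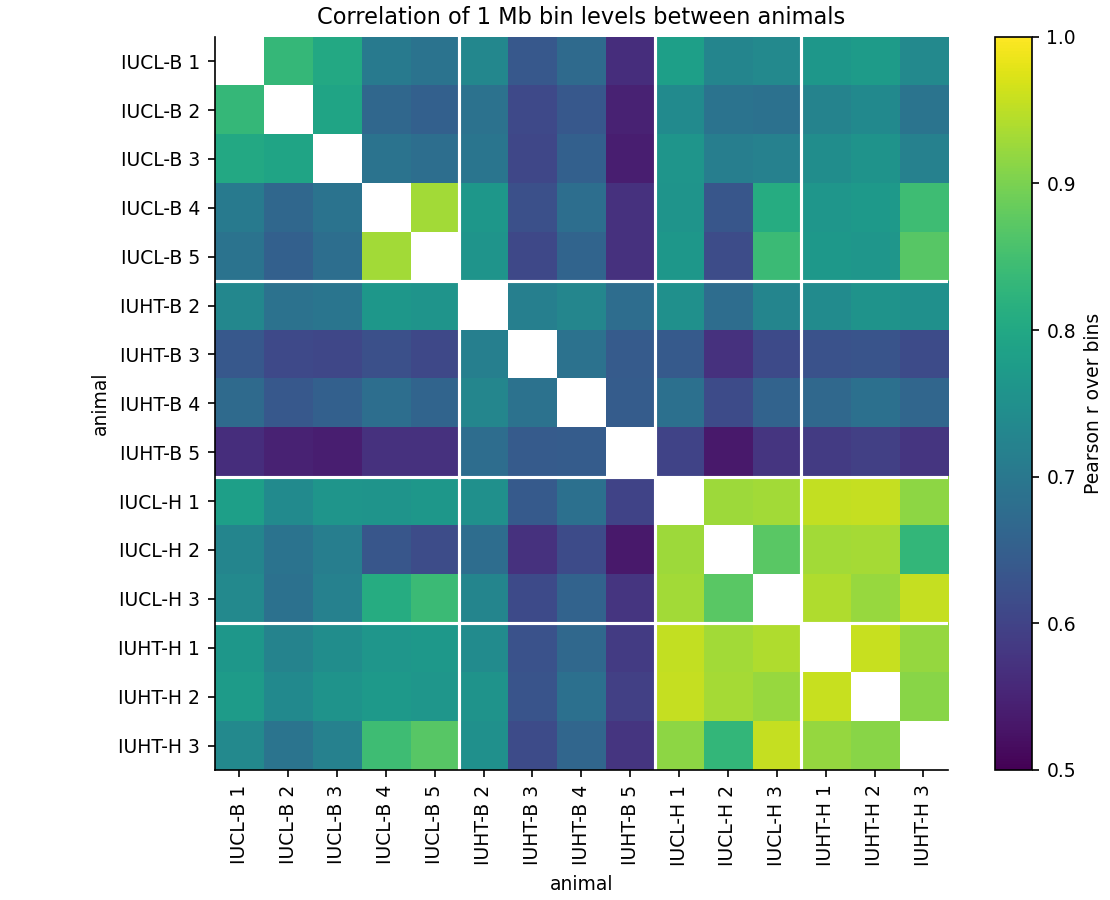
Pearson r over 1694 bins between the bin levels of each pair of animals, with both axes listing the 15 animals by group and white lines separating the groups (diagonal left blank). The heifer block is the brightest (0.831 to 0.958), and IUCL-B 4 and 5 are brighter against heifers 3 of both treatments (0.810 to 0.871) than against the other calves (0.571 to 0.765).

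The landscape of methylation itself was largely common to the tissues: the mean level of a bin in liver (average 76.8%) and in mammary gland (average 73.1%) correlated at r = 0.858 over bins. No such likeness was seen in the treatment effects, though an agreement within the range of relabelled r given below would not have been detectable. In liver the 5th and 95th percentiles of the effects were -5.51 and 5.25 points, with an SD over bins of 3.19 points and extremes of -16.4 and 10.8. In mammary gland these percentiles were -1.58 and 1.77 points, with an SD of 1.05 and extremes of -3.27 and 3.91. The median standard error of an effect that comes from the number of positions alone was 1.71 points in liver and 0.590 in mammary gland, which is a sizeable part of the spread of effects in each tissue.

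Over the 1694 bins the liver effect and the mammary effect correlated at r = -0.0904. Keeping the animals in their tissue and exchanging treatment labels in every possible way (2520 relabellings, with 20 for the heifers alone), 1496 relabellings gave an r at least as far from 0, so the two-sided exact permutation P was 0.594 (0.700 after Benjamini-Hochberg adjustment over 5 tests). Relabelled r ran from -0.520 to 0.520, and the middle 95% of relabellings lay between -0.434 and 0.434. An r of this size was not distinguishable from that of arbitrary groupings of the same animals, and an agreement with r inside that range would not have been detectable with these 15 libraries. Spearman's rho was -0.0896 (exact permutation P = 0.558). The effects of both tissues had the same sign in 47.1% of bins (exact permutation P = 0.605): 386 bins were higher in IUHT animals of both tissues, 412 lower in both, 478 higher in liver and lower in mammary gland, and 418 lower in liver and higher in mammary gland.

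**Figure D2:**
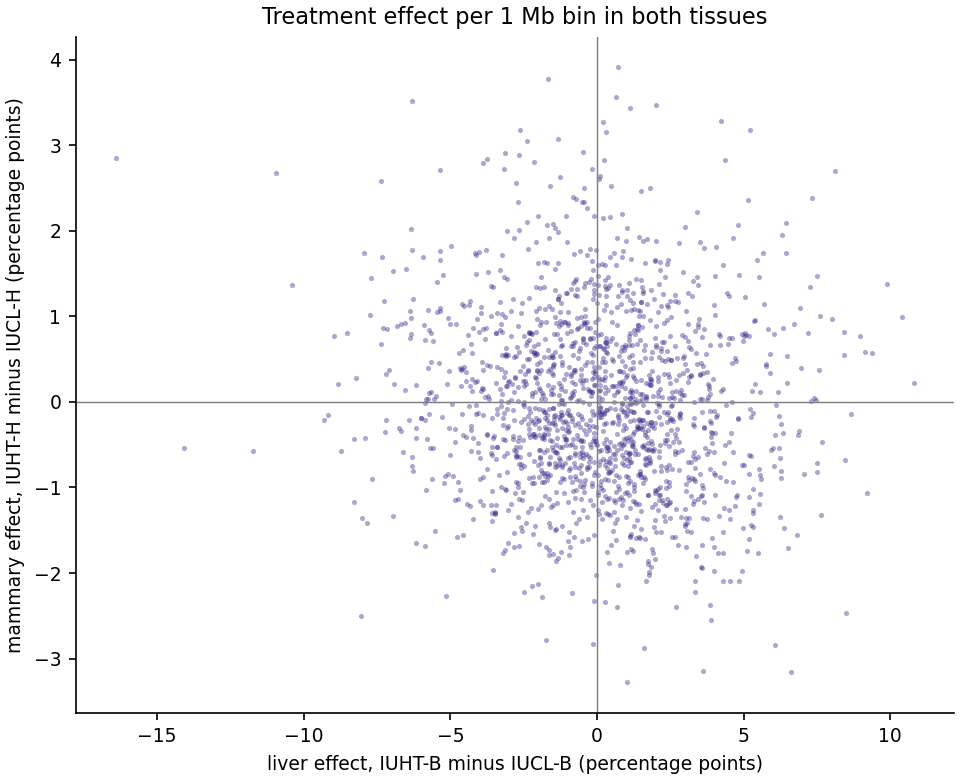
Each point is 1 of 1694 bins, with the liver effect on the x axis and the mammary effect on the y axis, both in percentage points (IUHT minus IUCL). The axes have different scales: liver effects spread about 3 times as far as mammary effects (SD 3.19 and 1.05 points), and the cloud has no clear slope (r = -0.0904).

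The size of relabelled r varied with the side on which these 4 libraries fell. Where IUCL-B 4 and 5 fell on the same side and the heifers numbered 3 fell on the same side (448 relabellings), the median size of r was 0.385 and the largest 0.520. Where both pairs were split (840 relabellings), the median was 0.0505 and the largest 0.231. In the labelled groups the calves 4 and 5 are together and the heifers 3 are apart, an arrangement of 672 relabellings with a median of 0.162 and a largest of 0.304. No relabelling of this arrangement left the middle 95% of all relabellings (-0.434 to 0.434). The relabelling P of r thus had little room to be small for groups arranged this way. Across all relabellings 30.6% gave an r beyond 0.2 in size.

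**Figure D3:**
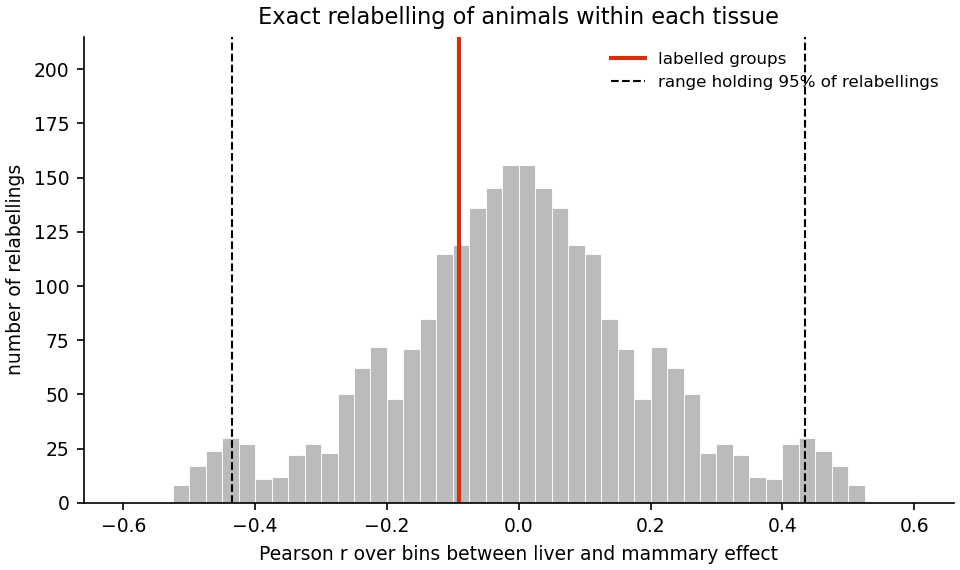
Number of relabellings (y axis) by the Pearson r over bins between liver and mammary effect (x axis) for all 2520 exchanges of treatment labels within each tissue. The red line is r of the labelled groups (-0.0904), and dashed lines hold the middle 95% (-0.434 to 0.434).

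Which animals carried the relation was read from a score per animal, the correlation over bins of the animal's deviation from its tissue mean with the treatment effect of the other tissue. Along the mammary effect, IUCL-B 1 to 5 scored -0.180, -0.136, -0.165, 0.310 and 0.318, and IUHT-B 2 to 5 scored 0.010, -0.0766, -0.0460 and -0.0494. All the IUHT-B scores lay between the highest and the lowest IUCL-B scores, and IUCL-B itself was split, with calves 4 and 5 on the positive side and calves 1 to 3 on the negative side. The mean IUCL-B score was 0.0294 ± 0.260 (SD, n = 5), whereas the mean of the IUHT-B calves was -0.0405 ± 0.0363 (SD, n = 4), a difference of -0.0699 (two-sided exact permutation P = 0.508). Along the liver effect, IUCL-H 1 to 3 scored 0.142, 0.155 and -0.164, and IUHT-H 1 to 3 scored 0.0368, 0.109 and -0.181. Heifer 3 was the lowest of its group in both treatments. The difference between the heifer groups was -0.0558 (exact permutation P = 0.500, in a design of 20 relabellings whose smallest P is 0.1).

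**Figure D4:**
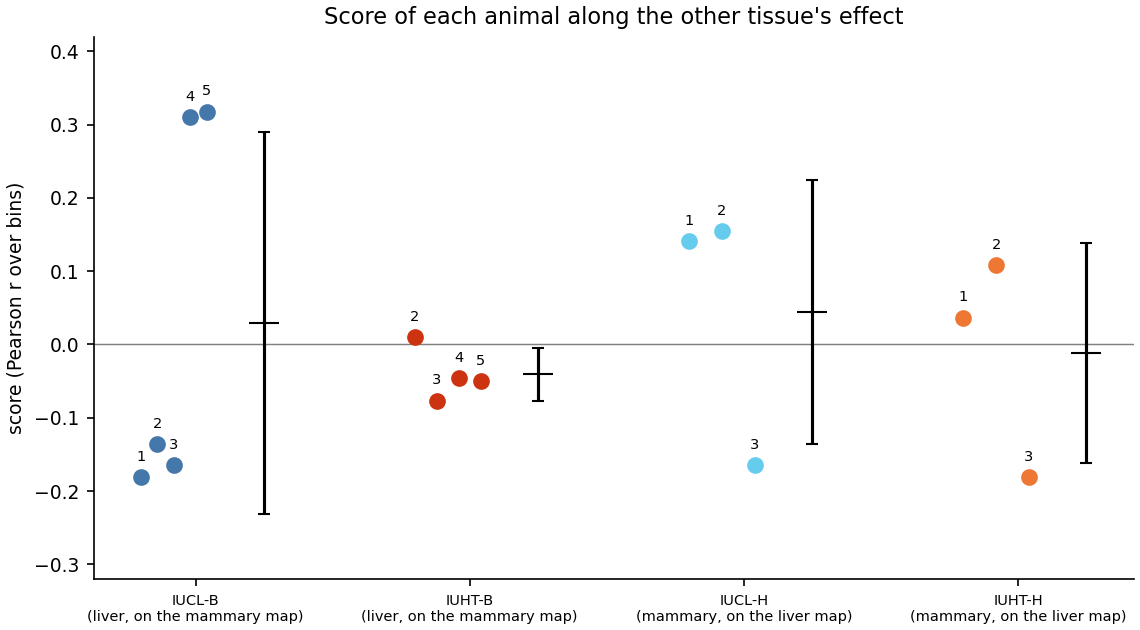
Score of each animal (y axis, Pearson r over bins with the effect of the other tissue) by group (x axis), where points are animals with their numbers and the bar beside them is the mean ± SD. IUCL-B splits into calves 1 to 3 (-0.180 to -0.136) and calves 4 and 5 (0.310 and 0.318), and heifer 3 is lowest in both heifer groups (-0.164 and -0.181).

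Leaving out IUCL-B 4 and 5 turned the sign of the correlation. From the remaining 13 animals r was 0.0828 (exact permutation P = 0.157), and after also leaving out the heifers numbered 3, an alternative chosen after seeing the data, it was 0.10 (exact permutation P = 0.0762 over 210 relabellings). Without calves 4 and 5 the difference between calf scores was 0.107 and was the largest of 35 relabellings (exact permutation P = 0.0286, the smallest this design gives). The 2 calves left out had the highest scores of all the calves (0.310 and 0.318), and IUCL-B 1 to 3 had the lowest (-0.180 to -0.136). A positive difference thus largely followed from leaving them out, and this P gives no support of its own. It is also not adjusted for the number of settings tried. Leaving out IUCL-H 2 or IUHT-H 3 alone gave 0.0151 and 0.0324. Other settings also turned the sign with r between 0.00580 and 0.0775 when positions were limited by read number or drawn to an equal number per bin. In the other direction, r was -0.265 in bins of 5 Mb (exact permutation P = 0.349), -0.159 with at least 200 positions per bin (377 bins) and -0.151 with the linear part of mean level and number of positions per bin removed. Neither a positive nor a negative correlation therefore held over the settings tried.

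The liver groups did differ from each other over bins by more than arbitrary groups of the same calves. The SD of the liver effect was 3.19 points, the largest of all relabellings of the calves, of which the next gave 2.89 and the median 2.28 (one-sided exact permutation P = 0.00794, the smallest possible, and 0.0397 after adjustment). The SD of the mammary effect was 1.05 points, among relabelled values of 0.889 to 1.86 (exact permutation P = 0.700). With 20 relabellings the smallest P of this test is 0.1, so it could not pass 0.05 and the tissues were not tested on equal terms. Deviations from the tissue mean correlated at 0.304 to 0.433 among IUCL-B 1 to 3 and at 0.711 between IUCL-B 4 and 5. Among the IUHT-B calves they correlated at -0.0751 to 0.0466, and between IUCL-B 1 to 3 and IUHT-B at -0.339 to -0.100. The deviations of the calves sum to 0 in every bin, so their r is pulled below 0 even without a group difference. The negative values are therefore no sign of opposite treatment effects. Which calves carried the difference was not tested. The liver libraries also read partly different positions. Of the positions of IUCL-B 1 to 3, 70.8 to 79.4% were read in another IUCL-B calf and 18.6 to 20.5% in an IUHT-B calf. The corresponding shares were 32.6% and 22.1% (own group) and 7.26% and 7.28% (other group) in IUCL-B 4 and 5. In IUHT-B 3 to 5, 56.9 to 85.2% of positions were read in the own group and 51.8 to 53.6% in the other, whereas IUHT-B 2 shared less with its own group (41.1%) than with the other (48.2%). Each share is against all other calves of a group together, so it also depends on how many positions they hold. IUCL-B 4 and 5 held 3176770 and 5788657 positions, and the IUHT-B calves 283208 to 998522. Over positions that no other calf of the group had read, the SD of the liver effect was 4.79 points in 1379 bins and was not past the threshold (exact permutation P = 0.143, chosen after seeing the data). Alternatives were held to an unadjusted P under 0.05, since the adjustment was made for the reported settings alone. Without IUCL-B 4 and 5 the SD was 3.53 points and passed (exact permutation P = 0.0286, the smallest of 35 relabellings, which could not pass after the same adjustment). Pooled calls gave an SD of 5.39 points (exact permutation P = 0.0238). The test also passed with the linear part of mean level and number of positions per bin removed (SD 3.0 points, exact permutation P = 0.00794), and in 2 settings chosen for this result after seeing the data, bins of 2 Mb (SD 2.68 points, exact permutation P = 0.0317) and 50 positions drawn per bin (SD 4.73 points, exact permutation P = 0.00794). The liver effect size did not pass in bins of 5 Mb (SD 1.77 points, exact permutation P = 0.175) or without IUHT-B 5, either over the 2124 bins that then reached the minimum (SD 3.30 points, exact permutation P = 0.0714) or, added after seeing the data, over the same 1694 bins (SD 3.01 points, exact permutation P = 0.0714). Nor did it pass in settings chosen for this result after seeing the data, with at least 5 reads per position (SD 3.95 points, exact permutation P = 0.0635) and with more than 10 reads in 242 bins (SD 3.8 points, exact permutation P = 0.0794).

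Single bins were tested in each tissue with limma and Benjamini-Hochberg adjustment over all 1694 bins. At an adjusted P under 0.05, 0 bins were called in liver (smallest adjusted P = 0.0646) and 0 in mammary gland (smallest adjusted P = 0.997), although 296 liver bins (17.5%) and 27 mammary bins (1.59%) had an unadjusted limma P under 0.05. That unadjusted liver number was 130 of 1694 bins with pooled calls and 71 of 377 with at least 200 positions. In settings chosen after seeing the data it was 131 of 1679 with at least 5 reads per position and 82 of 1379 over positions that no other calf of the group had read. The smallest adjusted limma P in these 4 settings was 0.368, 0.0112, 0.618 and 0.777. The number of liver bins called was 27 without IUHT-B 2, 1 without IUHT-B 3 and 3 without IUCL-B 4 and 5. Without IUHT-B 5 it was 2 over the 2124 bins that then reached the minimum, and 0 over the same 1694 bins. At an adjusted P under 0.2, the q-value part of the study's criteria for single cytosines, without its minimum difference in methylation, 170 liver bins (10%) were called, 89 higher and 81 lower in IUHT-B, with median liver effects of 6.06 and -6.19 points. The mammary effect of the higher bins had a median of -0.137 points and that of the lower bins 0.205, against -0.0912 over all bins. Of the 170 bins, 77 (45.3%) had a mammary effect of the same sign, near the 47.1% of all bins. The number of these bins whose heifer groups did not overlap was 10 (5.88%), and 6.02% of all bins were of this kind.

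Groups did not overlap in 121 bins in liver (7.14%), of which 63 were higher and 58 lower in IUHT-B, and in 102 bins in mammary gland (6.02%), of which 44 were higher and 58 lower in IUHT-H. These shares are not on equal terms. With 20 relabellings, arbitrary labels leave the heifer groups of a bin without overlap with a chance of 0.1, above the 6.02% seen. For the calf groups that chance is smaller and lies below the 7.14% seen. Neither share was tested, and heifer groups without overlap are no sign of a treatment effect on their own. Both tissues were without overlap in 10 bins, 8.26% of those in liver and 9.80% of those in mammary gland. The direction was the same in 4 of them and opposite in 6, and the 6 are not named here. The 4 bins of the same direction, named after their values were seen, lay on chromosome 16 from 34000000 to 34999999, chromosome 4 from 17000000 to 17999999, chromosome 21 from 30000000 to 30999999 and, lower in both, chromosome 4 from 113000000 to 113999999.

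The bin of these 4 with the largest effects was that of chromosome 16. IUCL-B 1 to 5 were at 0.383, 0.448, -5.24, -0.519 and -1.02 points, and IUHT-B 2 to 5 at 3.61, 7.08, 7.42 and 6.48. IUCL-H 1 to 3 were at -0.465, 1.08 and 1.57, and IUHT-H 1 to 3 at 3.04, 3.39 and 2.91. All heat stressed animals of a tissue were thus above all its cooled animals, with effects of 7.34 points in liver and 2.39 in mammary gland. The chromosome 4 bin at 17000000 had effects of 5.65 and 1.74 points, the chromosome 21 bin 4.5 and 1.23, and the chromosome 4 bin at 113000000 -4.56 and -1.55. The last of these was the best covered, with 262 to 5499 positions in each calf and 6199 to 8753 in each heifer. Coverage in calves was 57 to 1083 positions in the chromosome 16 bin, 60 to 1326 in the chromosome 4 bin at 17000000 and 146 to 2644 in the chromosome 21 bin. None of the 4 had an adjusted limma P under 0.05 in either tissue.

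For each of the 4 combinations of signs, the 3 bins whose smaller effect was largest are described, without a test. Among bins higher in both tissues the largest was chromosome 14 from 15000000 to 15999999, with effects of 4.22 and 3.28 points. There IUCL-B 1 to 5 were at 0.855, -1.72, 0.252, 10.4 and 3.75 and IUHT-B 2 to 5 at 6.93, 4.62, 9.04 and 7.16. The heifers were at 0.133, -0.893 and 1.31 in IUCL-H and 2.75, 3.24 and 4.41 in IUHT-H. The heifer groups did not overlap, but IUCL-B 4, at 10.4, was the highest of all 15 animals, so the calf groups overlapped. Next came chromosome 4 from 6000000 to 6999999 (5.21 and 3.18 points) and chromosome 14 from 6000000 to 6999999 (4.36 and 2.83 points). In the first of these the liver group means were -7.5 ± 3.44 (SD, n = 5) and -2.29 ± 3.79 (SD, n = 4), in the second -3.6 ± 5.61 and 0.761 ± 2.58, and groups overlapped in both.

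Lower in both tissues were chromosome 6 from 14000000 to 14999999, with effects of -8.04 and -2.51 points, chromosome 2 from 80000000 to 80999999, with -5.15 and -2.27, and chromosome 5 from 26000000 to 26999999, with -2.48 and -2.22. On chromosome 6 the IUHT-B calves were at -9.51, -18.2, -7.33 and -25.6 points and the IUCL-B calves at -5.48, -1.0, -5.08, -9.66 and -14.5. Calves 3 and 5 of IUHT-B were the lowest of the 9, and IUCL-B 5 was below the other 2 IUHT-B calves. The lowest number of positions in a calf was 50, just at the minimum. The heifers of the same bin were at -8.86, -6.34 and -12.8 in IUCL-H and -13.2, -8.48 and -13.8 in IUHT-H. The chromosome 5 bin was less methylated in liver, at 53.2 and 52.2% on average in IUCL-B and IUHT-B, than in mammary gland, at 60.8 and 58.2% in IUCL-H and IUHT-H. It was well covered, with 209 positions or more in every calf.

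Higher in liver and lower in mammary gland were chromosome 3 from 34000000 to 34999999 (6.62 and -3.16 points), chromosome 2 from 121000000 to 121999999 (3.61 and -3.15 points) and chromosome 23 from 26000000 to 26999999 (6.06 and -2.84 points). On chromosome 3 the IUCL-B calves were at -9.62, -2.74, -8.51, -3.56 and -10.2 and the IUHT-B calves at -3.08, 2.52, -0.208 and -0.473. IUCL-H heifers were at -5.77, -2.52 and -7.4 and IUHT-H heifers at -7.77, -6.34 and -11.1 in the same bin. Of the 4 IUHT-B calves, 3 were above every IUCL-B calf, and IUHT-B 2 was just below IUCL-B 2. On chromosome 23 the IUHT-B calves were at -0.534, 8.34, -1.1 and -1.45 and the IUCL-B calves at -6.34, -5.3, -2.81, -4.6 and -4.7. All IUHT-B calves were above all IUCL-B calves, with IUHT-B 3 far above the other 3. The heifers of this bin were at -3.85, -7.55 and -4.49 in IUCL-H and -11.3, -11.2 and -1.88 in IUHT-H. Their groups overlapped, and IUHT-H 3 was the highest of all the heifers, against the direction of the group mean.

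Opposite to these, lower in liver and higher in mammary gland, were chromosome 24 from 6000000 to 6999999 (-6.31 and 3.51 points), chromosome 27 from 3000000 to 3999999 (-3.15 and 2.91 points) and chromosome 15 from 17000000 to 17999999 (-16.4 and 2.85 points). The chromosome 24 bin also had the smallest mammary limma P of the bins that were higher in IUHT-H, followed by the chromosome 14 bin at 15000000. Its heifers were at -8.43, -9.06 and -7.15 in IUCL-H and -3.6, -6.22 and -4.29 in IUHT-H, without overlap, and its calves at 3.46, 0.0325, 3.67, 8.37 and 9.9 in IUCL-B and 2.69, -8.42, -2.28 and 3.12 in IUHT-B, with overlap.

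The bin on chromosome 15 held the largest liver effect of all. IUCL-B 1 to 5 were at -10.7, -12.9, -8.26, -4.52 and -3.82 points and IUHT-B 2 to 5 at -18.6, -21.8, -23.1 and -34.3, a mean of -8.03 ± 3.89 (SD, n = 5) against -24.4 ± 6.81 (SD, n = 4). Every IUHT-B calf was below every IUCL-B calf. The heifers were at -7.61, -8.07 and -9.32 in IUCL-H and -8.08, -4.74 and -3.64 in IUHT-H, and their groups overlapped. In percent methylated the bin averaged 68.0 and 53.2% in IUCL-B and IUHT-B, and 64.9 and 67.4% in IUCL-H and IUHT-H. It rested on 53 to 791 positions in each calf and 970 to 1303 in each heifer.

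Whether the effect differed between tissues was tested for each bin as the interaction of tissue and treatment in limma, with a separate variance for each tissue. After Benjamini-Hochberg adjustment limma called 2 bins (0.118%), while 249 bins (14.7%) had an unadjusted limma P under 0.05. The called bins were that of chromosome 15, with an adjusted limma P of 0.0290, and chromosome 18 from 44000000 to 44999999, with an adjusted limma P of 0.0471. The chromosome 18 bin was higher in liver of IUHT-B, with calves at 3.57, 4.84, 3.56 and 7.05 against -2.17, -2.27, -4.65, -2.83 and -1.79 in IUCL-B. The heifers of this bin were at -2.57, -1.23 and -2.08 in IUCL-H and -2.22, -2.25 and -3.55 in IUHT-H. Liver groups were apart without overlap (effect 7.49 points), and heifer groups overlapped (effect -0.713 points). With equal weights for all animals neither bin was called, and without IUCL-B 4 and 5 the count was again 2. Leaving out 1 animal gave 16 bins without IUHT-B 2, 1 bin without IUCL-B 1, IUCL-B 2 or IUHT-H 1, 2 bins without IUCL-H 3, and 0 bins without any 1 of 9 others (IUCL-B 3 to 5, IUHT-B 3 and 4, IUCL-H 1 and 2, IUHT-H 2 and 3). Without IUHT-B 5 it gave 2 bins of 2124, and 1 over the same 1694 bins. Of these settings, only that without IUHT-B 2 called bins with a mammary effect below the liver effect (7 of 16). The chromosome 18 bin is of that kind and was thus not called in the others.

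By liver limma P alone, the leading higher bins were the chromosome 18 bin and chromosome 4 from 64000000 to 64999999, and the leading lower bins were the chromosome 15 bin and chromosome 4 from 48000000 to 48999999. At 64000000 on chromosome 4 the IUHT-B calves were within 3.09 to 4.39 points and all IUCL-B calves at -1.02 or below, with a mammary effect of 1.35 points. At 48000000 on the same chromosome IUHT-B 2 to 5 were at -4.69, -16.8, -11.2 and -19.8 and IUCL-B 1 to 5 at 1.62, 0.771, 4.13, -1.36 and -0.326, and the mammary effect was -0.536 points. By mammary limma P, the leading lower bins were chromosome 3 from 32000000 to 32999999 and chromosome 11 from 83000000 to 83999999, with mammary effects of -2.88 and -2.34 points and liver effects of 1.61 and 0.266 points. Heifer groups did not overlap in either, and calf groups overlapped in both.

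Neighbouring bins moved together weakly in mammary gland and hardly at all in liver. Over 1385 pairs of adjacent bins the effects correlated at r = 0.171 in mammary gland and 0.0102 in liver. The mammary effect also fell with the number of positions per bin (r = -0.250 with the log2 number of heifer positions, against 0.0567 for the liver effect). Deviations of single heifers correlated with that number at 0.0789, -0.0320 and 0.208 in IUCL-H 1 to 3. In IUHT-H 1 to 3 they did so at 0.0491, -0.332 and -0.0389, so the groups overlapped, and no relabelling was run on this trend. In the third of bins with the fewest positions the mean mammary effect was 0.341 points and in the third with the most it was -0.297, whereas the mean liver effect was -0.268 and 0.169. The SD of liver effects was 3.95 points in the former and 2.24 in the latter. The correlation of liver with mammary effect was -0.0455, -0.0960 and -0.130 from the third with the fewest to that with the most positions.

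Averaged over whole chromosomes (36 to 84 bins each), effects were small and did not align between tissues. The mean liver effect ranged from -0.963 points on chromosome 4 to 1.08 on chromosome 26, and the mean mammary effect from -0.290 on chromosome 3 to 0.377 on chromosome 20. Both means had the same sign on 10 of 29 chromosomes. As with bins, arbitrary labels leave heifer groups without overlap more often than calf groups. Liver groups did not overlap on 2 chromosomes (6.9%), higher in IUHT-B on chromosome 12 and lower on chromosome 4, and heifer groups on 3 (10.3%), higher in IUHT-H on chromosomes 4 and 20 and lower on chromosome 7. Chromosome 4 was thus without overlap in both tissues, in opposite directions: IUCL-B calves were at 0.175, 0.381, 0.264, 0.385 and 0.386 points and IUHT-B calves at -0.0186, -0.898, -0.524 and -1.14, while IUCL-H heifers were at -0.0228, 0.00548 and 0.00932 and IUHT-H heifers at 0.165, 0.185 and 0.306. On chromosome 12 the IUCL-B calves were at 2.2, 2.25, 2.31, 2.13 and 1.72 and the IUHT-B calves at 2.81, 2.58, 3.33 and 3.4, with heifers at 1.43, 1.34 and 1.19 in IUCL-H and 1.75, 1.66 and 1.3 in IUHT-H.

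**Figure D5:**
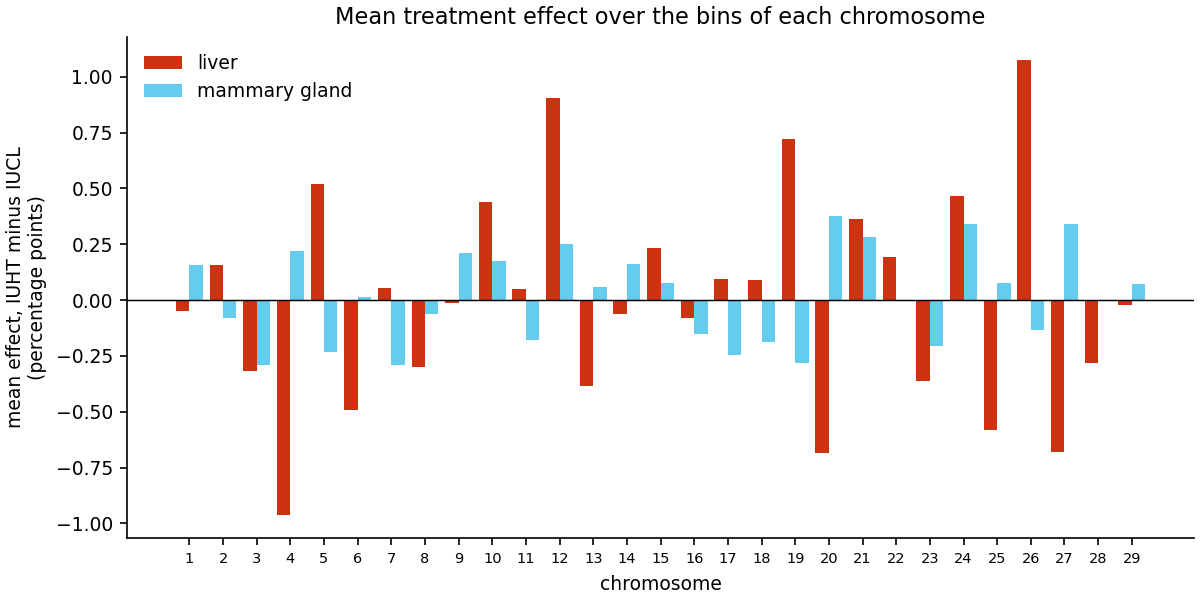
Mean treatment effect (y axis, percentage points, IUHT minus IUCL) over the kept bins of each chromosome (x axis, 29 chromosomes), with liver and mammary gland as paired bars. Liver bars run from -0.963 to 1.08 and mammary bars from -0.290 to 0.377, and the pair points the same way on 10 chromosomes.

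Within chromosomes the correlation of liver with mammary effects was negative on 22 and positive on 7, with a median of -0.0842 and a range from -0.453 on chromosome 15 to 0.257 on chromosome 4. The value on chromosome 15 rested partly on its most extreme bin, without which it was -0.305 over 55 bins. Leaving that bin out of the whole set gave r = -0.0830 (exact permutation P = 0.620). The positive value on chromosome 4 stands beside chromosome means of opposite sign. Chromosomes share the same 15 libraries, so these 29 values are a description and carry no test.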

How the data were processed

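RRBS libraries of 9 calf livers and 6 heifer mammary glands were read as 50 bp single ends by the authors and, per the submitters' processing notes, checked with FastQC, trimmed with Trim Galore 0.4.4 and mapped to UMD3.1 with Bismark 0.17.0. For every cytosine position the authors deposited the counts of methylated and unmethylated calls, and the percent of calls that were methylated is a deposited column too. Positions with 1 read are listed, and all were used here with equal weight, so a position with 1 read weighs as much as a deep one. Coordinates are 1-based UMD3.1. No molecular identifiers were used, so position-based errors cover sampling of positions only.

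Positions on chromosomes 1 to 29 were binned at 1 Mb (minimum 50 positions in every animal) and centred per animal. Pearson's r was compared with all relabellings of animals within tissues (exact, two-sided). Effect sizes were tested one-sided. Bins were tested with limma 3.58.1 in R 4.3.3, and other steps used Python 3.11.15 and numpy 2.4.6. Scripts were tested on simulated data. Named bins were, for each combination of effect signs, the 3 with the largest smaller effect, at least 2 Mb apart, and per tissue the 2 with the smallest P in each direction. The members, bins and tests were chosen with earlier results of these data known. Alternatives covered bin size, position and read minimums, pooled calls, weighting, single animals and calf numbers as a block. Genes and sequences were not analysed here.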

Additional observations from a re-analysis of the deposited data

Results flagged for a closer look

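In 2 bins the liver and mammary effects differed by the interaction test of limma. The mammary effect minus the liver effect was 19.3 points on chromosome 15 at 17000000 and -8.21 points on chromosome 18 at 44000000, and neither bin was called with equal weights for all animals. In 4 of 50 sets of calf values examined, 1 calf lay far from the rest of its group, where chance gives about 1 in 20. These were IUCL-B 2 at -1.02 points on chromosome 4 at 64000000, IUCL-B 3 at -5.24 points on chromosome 16 at 34000000, IUHT-B 2 at -3.11 points on chromosome 14 at 6000000, and IUHT-B 3 at 8.34 points on chromosome 23 at 26000000. Each was a different bin.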

How the results depend on the processing

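The correlation of liver with mammary effects kept its sign in most settings and never passed 0.05. It turned positive with at least 5 reads per position (r = 0.0430, exact permutation P = 0.397, with 10 such positions per bin as the minimum), more than 10 reads (0.0775), 50 positions drawn per bin (0.00580), without IUCL-B 4 and 5 (0.0828) and also without heifers 3 (0.10). It was more negative in 5 Mb bins (-0.265), with at least 200 positions (-0.159) and with bin covariates removed (-0.151). Leaving out 1 animal gave r from -0.174 to 0.0324. The difference between calf scores was 0.107 without IUCL-B 4 and 5 and 0.119 also without heifers 3, and from -0.149 to 0.0351 without 1 animal. That between heifer scores was 0.0484 and 0.102 in the same settings, and -0.166 to 0.00467 without 1 animal. The SD of the liver effect kept its call, at an unadjusted P under 0.05, without IUCL-B 4 and 5 (3.53 points) and lost it in 5 Mb bins (1.77 points), with at least 5 reads (3.95), more than 10 reads (3.8), positions in no other calf of the group (4.79), and with calf numbers as a block. It ran from 3.01 to 3.67 without 1 calf, with the call lost without IUHT-B 5 (3.01 over the same bins, 3.30 over 2124), and stayed at 3.19 without 1 heifer, which cannot move it. Liver bins called rose from 0 to 170 at a cut-off of 0.2, 7 with at least 200 positions and 3 without IUCL-B 4 and 5 (0 to 27 without 1 animal), and bins with an interaction from 2 to 101 at 0.2 and 0 with equal weights (0 to 16 without 1 animal). The causes were not tested. Mammary bins stayed at 0 in all 11 alternatives.

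With calf numbers as a replicate block (4 pairs, IUCL-B 1 left out), r was -0.134 (exact permutation P = 0.4125) and the SD of the liver effect 3.29 points (P = 0.125, the smallest this exact test allows). Deviations of same-numbered calves from the tissue mean correlated at -0.269 to -0.150. All pairs of calves of different groups ranged from -0.339 to -0.0728, so the numbers were not taken as pairs.

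The number of positions limits the liver: IUHT-B 5 had a median of 112.5 positions per bin, against 2878 or more in the heifers. Chosen after seeing the data were the settings that leave out heifers 3, IUHT-B 5 over the same bins or the bin of the largest liver effect, that use unshared positions, and, for the liver effect size, 2 Mb bins, read minimums and 50 drawn positions. For called liver bins the read minimum was added likewise.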

Other observations

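Bins in which the libraries IUCL-B 4, IUCL-B 5, IUCL-H 3 and IUHT-H 3 were lowest together are described here. The 3 bins in which their mean deviation from the tissue mean was lowest, chosen after seeing the data and given without a test, lay on chromosome 13 from 23000000 to 23999999, chromosome 10 from 65000000 to 65999999 and chromosome 2 from 20000000 to 20999999. Low values of these libraries there follow from the choice. Bins in which they were highest were not ranked, and their mean deviation was 5.79 points in the chromosome 15 bin at 17000000. On chromosome 13 IUCL-B 4 and 5 were at -16.1 and -20.4 points and the other 7 calves at -7.88 to 1.81, while heifers 3 were at -10.4 (IUCL-H) and -7.64 (IUHT-H) and the other 4 heifers at -3.40 to -0.764. On chromosome 10 the calves 4 and 5 were at -14.6 and -16.6 and the other calves at -6.21 to 0.971, with heifers 3 at -14.4 and -11.4 and the others at -8.83 to -3.56. The chromosome 2 bin had IUCL-B 4 and 5 at -33.7 and -34.3 against -27.7 to -17.5 in the other calves, and heifers 3 at -27.1 and -24.3 against -21.7 to -18.6.

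These 4 libraries did not share a treatment, since IUHT-H 3 is in utero heat stressed and the other 3 are in utero cooled. Their bin levels had SDs of 5.98 and 6.70 points (calves) and 6.27 and 5.71 points (heifers), against 4.83 to 5.50 in the other 4 heifers. Among the other calves the SD was 5.00 to 5.28 in IUCL-B 1 to 3 and IUHT-B 2, and 6.05 to 7.22 in IUHT-B 3 to 5, which had the fewest positions.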
